A study of Gallus gallus with 6 samples.

Results

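Genes raised in one single ovary were examined in RNA-seq of 6 chicken ovaries, 1 library per hen. There were 3 hens of the Yaoshan (YS) chicken, an indigenous Chinese breed with low egg production, and 3 of its commercial hybrid (GYR). GYR hens descend from green-shell cocks with yellow feathers mated to hens that had a YS father and a recessive white feather layer mother, so part of the YS genome is shared by both groups. All hens were 260 days old, hatched in 1 batch, vaccinated by local guidelines and kept on the same diet. No experimental treatment is described, and the visible follicles had been removed from the tissue. The sample records give the ovary as the tissue, whereas their extraction note speaks of retinas. Marker genes of the ovary could not be checked, because the deposited Ensembl identifiers have no gene names in the sources used here.

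The members are 100 of the 21164 genes measured. FPKM, the fragments of a gene scaled by transcript length and by all mapped fragments of the library, is the unit of every level given. The 100 genes with the highest mean FPKM were left out, and a gene had to reach an FPKM of at least 5 in its highest ovary, which left 11301 genes. The ovary with the second-highest FPKM had to be of the other breed, as it was in 6477 of them, so that a gene raised throughout a breed was not taken. The 100 genes with the largest ratio of highest to second-highest FPKM, with 0.5 added to both, were then kept. All 6 ovaries were used for this choice, so the levels and the comparison of the breeds below describe the members and test nothing about them. The members are also no replicates of each other, since all members with a peak in the same ovary share its library.

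In hens only the left ovary normally becomes functional. It carries follicles of many stages, from small ones embedded in the cortex to large yolk-filled ones, together with stroma, vessels, nerves, smooth muscle and immune cells. The visible follicles had been removed here, and how completely in each ovary is not known. A library sums the transcripts of all cells left in the tissue. More cells of a type and more RNA per cell therefore cannot be told apart in any value below.

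The libraries were similar in depth as far as FPKM show it. Relative depth, read from the steps between low FPKM, was 1.00 to 1.08 times that of YS_1 in all libraries but GYR_2, the deepest at 1.28. Between 13174 and 13928 genes had an FPKM of at least 1 in a library. The file of YS_1 alone lacks the 3458 rows without identifier that the other 5 files end with. These rows were left out everywhere, and their part in any result was not tested. On the genes with an identifier YS_1 was the least like the others, with a mean Pearson's r of 0.937 across genes on the log2(FPKM + 1) scale, against 0.942 to 0.959 for the other ovaries.

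The peaks were unevenly spread over the ovaries. YS_1 held 43 of the 100 members, GYR_1 held 20, GYR_3 held 19, YS_3 held 13, YS_2 held 4 and GYR_2 held 1. Of the 6477 genes past the same conditions except the size of the ratio, 26.9% peaked in YS_1 and 21.2% in GYR_1. The shares were 13.4% for YS_3, 13.3% for YS_2, 12.6% for GYR_2 and 12.5% for GYR_3. The members were thus more frequent among the genes of YS_1 (2.47 members per 100 such genes) and GYR_3 (2.34) than among those of YS_3 (1.5) and GYR_1 (1.46). They were rare among those of YS_2 (0.463) and GYR_2 (0.122), the pair of ovaries most like the others across all genes.

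**Figure D1:**
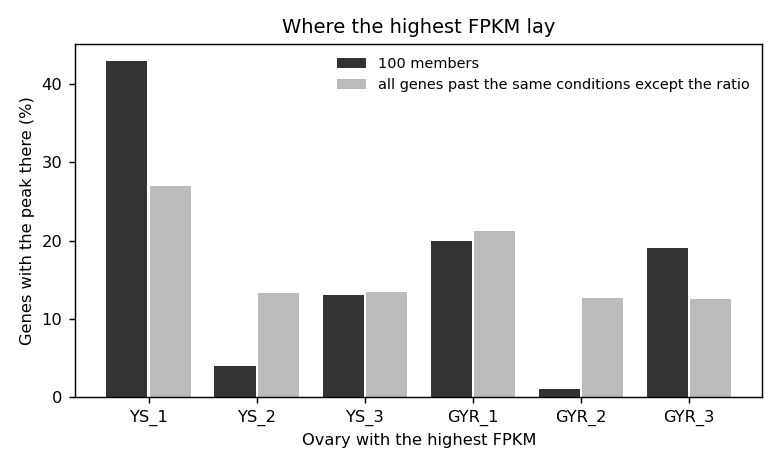
Share of genes, in percent, whose highest FPKM lay in each ovary, for the 100 members (dark bars) and for the 6477 genes past the same conditions whatever their ratio (grey bars). YS_1 held 43 members and GYR_2 held 1, while each of these ovaries held the peak of 26.9% and 12.6% of the 6477 genes.

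The ratio of highest to second-highest FPKM ranged from 2.17 to 66.2 over the members, with a median of 3.15. The median over the 6477 genes was 1.10. Only 20 members reached a ratio of 5, 9 reached 10 and 6 reached 20, so most of the list consisted of moderate rises. The highest FPKM ran from 5.04 to 514.6, with a median of 13.1 against 23.5 for the 6477 genes. Just inside the limit, the members at places 98 to 100 had ratios of 2.19, 2.18 and 2.17. The next 3 genes outside had ratios of 2.15 each, so no gap separates the members from the rest.

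**Figure D2:**
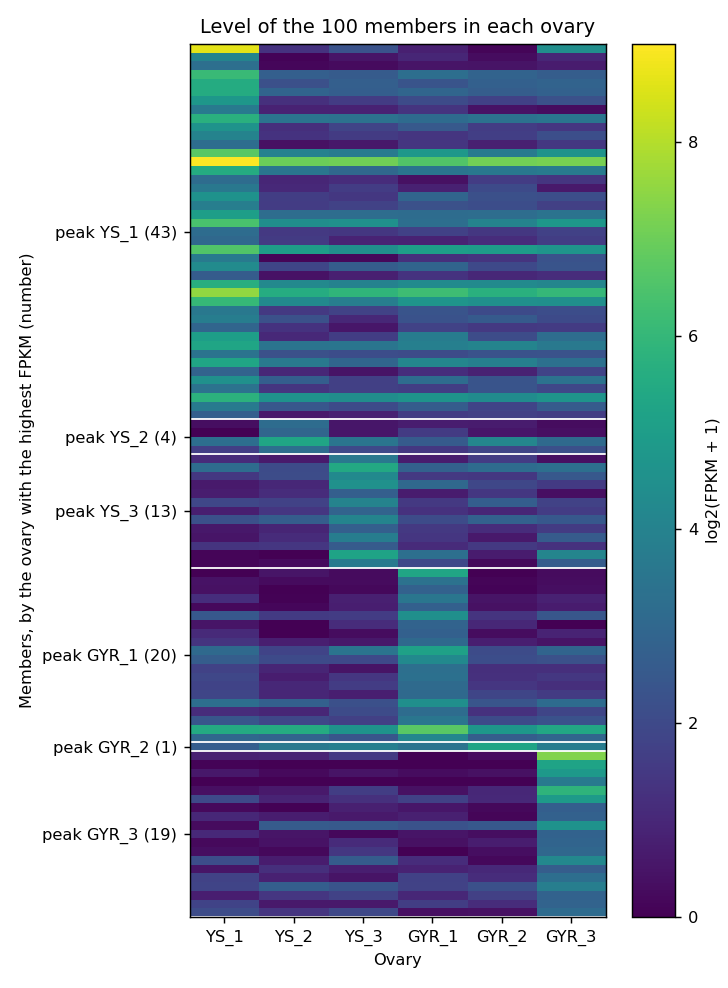
Level of the 100 members (rows) in the 6 ovaries (columns) on the log2(FPKM + 1) scale, grouped by the ovary with the highest FPKM and ordered within a group by the ratio to the second-highest. The bright block on the diagonal is set by the choice of the members, and the dark cells beside the GYR_3 block show the low levels of those members in the other ovaries.

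The steepest rises belonged to GYR_3, which held 5 of the 6 members with a ratio of at least 20. ENSGALG00000053247 had an FPKM of 156.3 in GYR_3, whereas it was 0.79, 0.87 and 1.87 in YS_1 to YS_3, 0.05 in GYR_1 and 0.23 in GYR_2. Its ratio of 66.2 was the largest of all. ENSGALG00000001885 had an FPKM of 36.5 in GYR_3 and 0.07 in YS_1, and was listed at 0 in the other 4 ovaries. In both genes the other GYR hens were thus at or near the floor of the measurement, while GYR_3 was far above it. A member at the fourth place had 28.1 in GYR_3 and between 0.16 and 0.49 elsewhere. One at the fifth place had 11.9 in GYR_3 and was listed at 0 in all other ovaries, so its second place is a tie between the breeds. One at the sixth place had 56.9 in GYR_3, 2.12 in YS_3 and at most 1.00 in the remaining ovaries. No value here tells whether these genes are expressed by the same cells.

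Below these, the rises of GYR_3 were smaller. The median ratio of its 19 members was 4.25, the highest of the 4 ovaries that held more than 4 members, and 11 of the 19 reached a ratio of 4. The genes were low in the rest of the series. Their median FPKM was 8.52 in GYR_3 and between 0.32 and 1.17 in the other ovaries, and 1 of the 19 reached an FPKM of 1 throughout. Of all genes past the same conditions that peaked in GYR_3, whatever their ratio, 767 of 811 (94.6%) did. A large ratio requires levels outside the peak that are low beside it, so the choice of the members favours this difference.

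YS_1 held the most members, and they were higher in the other ovaries than those of GYR_3. Their median FPKM was 22.2 in YS_1 and between 2.13 and 4.09 elsewhere. An FPKM of 1 was reached in all 6 ovaries by 30 of the 43 (69.8%). Of all genes past the same conditions that peaked in YS_1, whatever their ratio, 1701 of 1744 (97.5%) reached it. None of the 43 was listed at 0 in any ovary, and neither was any of the 1744. Most of this group thus reached that level in every hen. The share was smaller than among all such genes, which the choice of large ratios favours. The median ratio of 2.99 was smaller than that of GYR_3. The most abundant member had an FPKM of 514.6 in YS_1, against 126.8 and 132.5 in YS_2 and YS_3 and 93.96, 136.1 and 141.1 in GYR_1 to GYR_3. The other 5 ovaries lay close together in this gene, with the breeds overlapping.

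The largest ratio in YS_1 was that of ENSGALG00000038241. Its FPKM was 395.6 in YS_1, against 1.5 and 3.95 in YS_2 and YS_3. In the GYR hens it was 20.8 in GYR_3, 0.75 in GYR_1 and 0.08 in GYR_2. GYR_3 was thus itself well above the other 4 ovaries, with a level 18.6 times lower than YS_1 after 0.5 was added to both. ENSGALG00000019061 had an FPKM of 15.6 in YS_1 and 0.07 and 0.41 in the other YS ovaries, beside 0.94, 0.23 and 0.96 in GYR_1 to GYR_3, a ratio of 11.0. For this gene no other ovary reached an FPKM of 1. Another YS_1 member, at place 11 of the list, had 8.82 in YS_1 and 0.12 to 0.62 elsewhere.

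**Figure D3:**
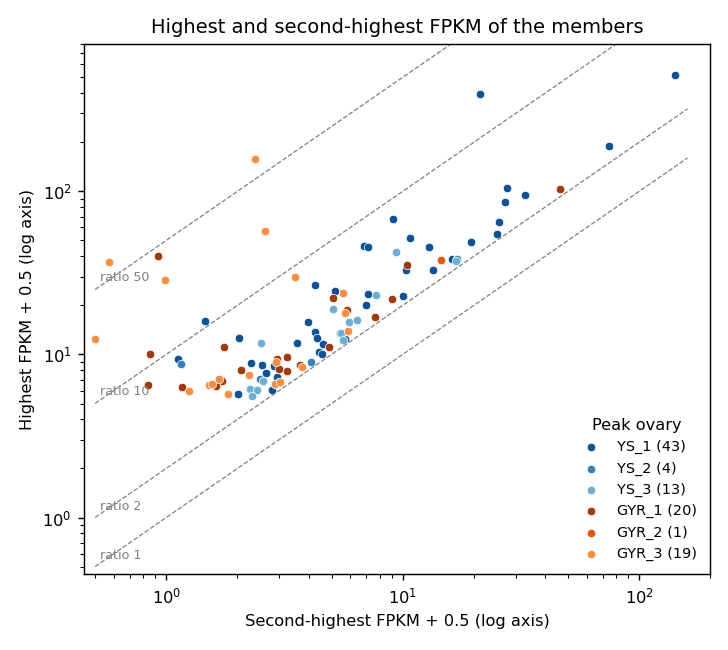
Highest FPKM against second-highest FPKM of each of the 100 members, both with 0.5 added and on log axes, coloured by the ovary with the peak. Dashed lines mark equal ratios. The members of GYR_3 with a ratio of at least 20 lie at the upper left, and the abundant members of YS_1, up to an FPKM of 514.6, lie at the upper right.

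GYR_1 had 20 members with a median FPKM of 9.34 there. The median over the same genes was 2.48 in YS_1 and 0.93 to 1.54 in the other 4 ovaries. The member with the largest ratio, 43.4, had an FPKM of 39.4 in GYR_1, was listed at 0 in YS_1 and GYR_2 and lay between 0.20 and 0.42 in the remaining ovaries. The next had 9.53 in GYR_1 and at most 0.35 elsewhere. In 4 of the 20 no other ovary reached an FPKM of 1, as in 4 of the 19 members of GYR_3 and 2 of the 43 of YS_1. The rule takes in every such gene, and all 11 among the 6477 genes are members.

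YS_3 had 13 members with a median FPKM of 13.1 in YS_3 and 0.71 to 2.46 elsewhere, and all but 3 of them had a ratio under 3. Its largest ratio was 4.68, in a gene with an FPKM of 11.3 in YS_3, 2.01 in GYR_2 and at most 1.15 in the rest. Another member had 42.2 in YS_3 and 3.14 to 8.83 in the other ovaries.

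YS_2 and GYR_2 held few members. Of the 4 in YS_2, the first had an FPKM of 8.20 in YS_2 and 0.22 to 0.65 elsewhere. The single member of GYR_2 had 37.5 there and 5.41 to 13.97 in the other ovaries, a ratio of 2.63.

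Together the members made up 0.486% of the summed FPKM of YS_1 and 0.129% to 0.220% of that of the other ovaries. These shares include the peaks by which the members were chosen.

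Outside the peak, the other 5 ovaries were less alike in the members than in the 6477 genes. The second-highest FPKM was a median of 1.18 times the next-highest below it (0.5 added to both), against 1.08 for the 6477 genes. In 21 members it was at least 1.5 times that value, so in these a further ovary stood above the remaining 4. The same held for 206 of the 6477 genes. YS_3 held 6 of these 21 members among its 13, whereas YS_1 held 7 of 43, GYR_3 held 4 of 19, and GYR_1 and YS_2 held 2 each. Of the 6477 genes by peak it was 45 of 868 in YS_3, 62 of 1744 in YS_1 and 41 of 811 in GYR_3. It was 44 of 1371 in GYR_1 and 7 of 864 in YS_2. From the second-highest to the lowest ovary the median ratio was 2.38, against 1.53 for the 6477 genes. The members were also lower in FPKM than these genes, and the part of their level in this wider spread was not tested.

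A comparison with the ovaries of the same breed gave larger ratios. The peak was a median of 4.68 times the higher of the other 2 ovaries of its breed, and 7.13 times in the members of GYR_3. The condition on the second ovary makes this ratio at least as large as the one used for the choice. Without that condition, 200 of the 11301 genes had a ratio of at least 2.17. The second ovary was of the other breed in 50% of the 200, the members, and in 57.3% of the 11301 genes. YS_1 also held 43 of the 100 genes with the second ovary in its own breed, GYR_1 held 28, GYR_3 held 17, YS_3 held 10, and YS_2 and GYR_2 held 1 each. Over both kinds, YS_1 held 86 of the 200 genes, GYR_1 held 48 and GYR_3 held 36. Of all 11301 genes, 21.8% peaked in YS_1, 23.4% in GYR_1 and 13.6% in GYR_3. The count of GYR_1 was thus near its share of all these genes, whereas that of YS_1 was well above it. The largest ratio among the genes with the second ovary in the same breed was 213.

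The hens carry replicate numbers 1 to 3 in each breed, and same-numbered ovaries deviated together across genes. Of the 6477 genes, 65.3% had their second-highest FPKM in the ovary with the same number as the highest. This held for 47 of the 100 members (47%). Among the 4 larger groups the difference was widest in YS_1 and GYR_3. Among the 43 of YS_1, GYR_3 was second in 19 and GYR_1 in 18, whereas GYR_1 was second in 64.0% of all such genes that peaked in YS_1. Among the 19 members of GYR_3, YS_1 was second in 9 and YS_3 in 7, against 22.6% and 60.2% of such genes. In GYR_1, YS_1 was second in 14 of 20 members (70%), close to the 70.3% of all such genes that peaked in GYR_1. In YS_3, GYR_3 was second in 7 of 13. What the number marks is not given in the sources used here.

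**Figure D4:**
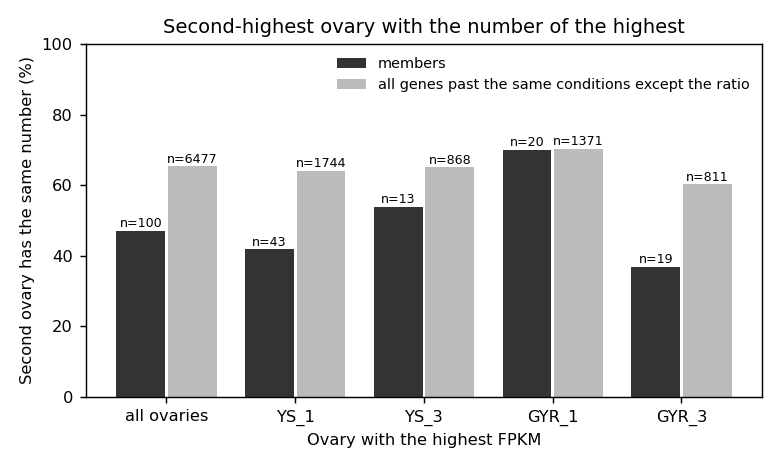
Share, in percent, of genes whose second-highest ovary had the same replicate number as the highest, for members (dark bars) and for all genes past the same conditions whatever their ratio (grey bars), with the number of genes above each bar. It was 47% over all members against 65.3%, and 70% against 70.3% in GYR_1. YS_2 and GYR_2, with 4 members and 1 member, are left out.

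Members with a peak in the same ovary need not share the order of the other ovaries. Each member of the 4 larger groups was correlated with the mean profile of its group over the 6 ovaries, after standardization of log2(FPKM + 1). These values are descriptions over 6 points that share the peak. The median Pearson's r was 0.960 in YS_1, 0.956 in GYR_1, 0.944 in GYR_3 and 0.900 in YS_3, with the lowest single value, 0.754, in GYR_3. Among the 14816 other genes whose mean FPKM reached 0.5, 81 had an r of at least 0.95 with the profile of YS_1, 33 with that of GYR_1, 34 with that of GYR_3 and 11 with that of YS_3. The members were not held to this limit, and in GYR_3 and YS_3 their median r was below it. These counts are therefore not set against the numbers of members.

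The identifiers hold the only annotation used here that is not computed from these FPKM. Ensembl in general numbers its gene models in the order in which they enter the annotation, so a high number marks a model added late. A number above 45000 was carried by 36 of the 100 members (36%), by 12.9% of the 6477 genes and by 33.3% of all 21164 genes. The members of GYR_1 had the largest share of the larger groups, with 12 of 20 (60%), against 11.9% of all such genes that peaked there. It was 8 of 19 in GYR_3 (42.1% against 14.8%), 10 of 43 in YS_1 (23.3% against 16.5%) and 3 of 13 in YS_3 (23.1% against 12.2%). Level changes the share as well. Among genes with a highest FPKM from 5 to 20 it was 41.9% of 62 members against 17.4%, and from 20 upward it was 26.3% of 38 members against 9.44%. The members were also lower in their other ovaries than these genes, and the part of that in the difference was not tested.

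The comparison of the breeds, the question of the study, was made across 14918 genes with limma on log2(FPKM + 1), which fits a linear model to each gene and shares information on the variance among genes. The study's criteria were an absolute log2 fold change above 1 with an unadjusted p-value under 0.05. The study applied them to another test, DESeq2, so the shares below are not the study's own yield. They were met by 1.71% of all genes and by 0 of the 100 members. An unadjusted p-value under 0.05 was found in 7.3% of all genes and in 0 members, and an adjusted one in 0.0134% of all genes and 0 members. In no member did the breeds separate without overlap (13% of all genes), which the choice of the members makes impossible. A single high ovary also widens the spread within its breed, so the rule nearly precludes a low p-value in a member and these counts of 0 say nothing about the members. The absolute log2 fold change alone was above 1 in 12 members (12%, against 2.43% of all genes). A single high ovary by itself enlarges the difference between the breed means, so the choice of the members favours this larger share. With the replicate number as a block, 2 of the 100 members met the criteria, against 2.02% of all genes. Without YS_1, the ovary with the largest number of peaks, 5 of the 99 members still tested met them, against 4.5% of all genes. Leaving out YS_1 removes the highest or second-highest value of many members, by which the rule made the breeds overlap. This share therefore tests nothing about the members either.

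Single ovaries set the breed means of these genes. For ENSGALG00000053247 the log2 fold change of GYR against YS was 1.47, and without GYR_3 it was -0.90. For ENSGALG00000001885 it was 1.71, and without GYR_3 the difference between the breed means was -0.03. For ENSGALG00000038241 it was -2.30, and without YS_1 it was -0.03. For ENSGALG00000019061 it was -0.81, and without YS_1 it was 0.45. A wide spread within the breed of the peak and a difference that shrinks or turns without it were fixed by the choice of these genes, so no p-value is given for them.

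Over all members, the mean of the breed with the peak was the higher in 93 of 100 with all 6 ovaries, and in 28 of 100 once the peak ovary was left out. The sign of the difference turned in 64. The median difference toward the breed of the peak was 0.57 on the log2(FPKM + 1) scale with the peak ovary and -0.13 without it. Since the second-highest ovary is of the other breed by the rule, a negative value is favoured by the choice. In YS_1 the mean of YS was the higher in 40 of 43 members and, without YS_1, in 7. In GYR_1 the mean of GYR was the higher in all 20 members and, without GYR_1, in 10. Once the peak ovary was left out, 7 members differed by more than 1 between the breed means, each toward the breed without the peak. None of the 7 had differed by more than 1 with all 6 ovaries. The largest of these differences, 2.62, was in a member of YS_3 that was lower in both other YS ovaries than in GYR.

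**Figure D5:**
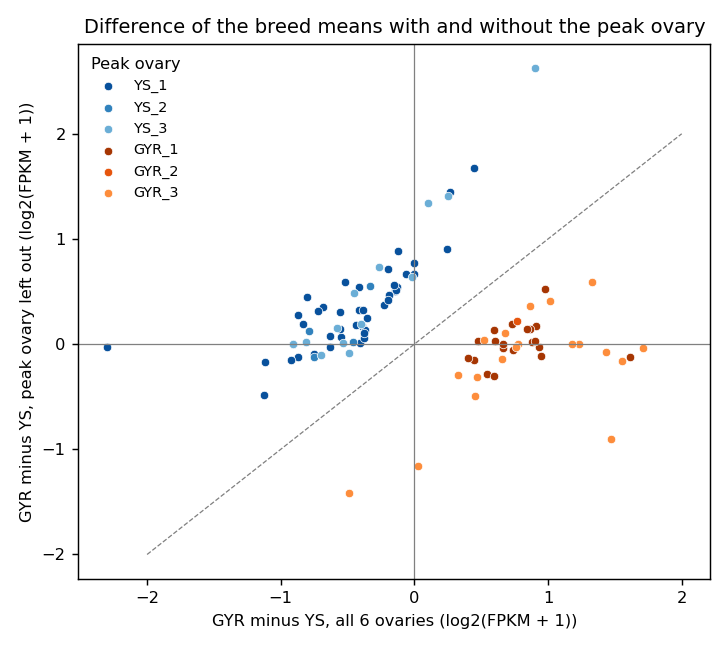
Difference between the breed means of log2(FPKM + 1), GYR minus YS, for each of the 100 members with all 6 ovaries (horizontal axis) and with the peak ovary left out (vertical axis), coloured by the peak ovary. The dashed line marks equal values. With the peak ovary left out most members lie near or across 0, and the sign turned in 64 of them.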

How the data were processed

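Ovarian RNA of 3 YS and 3 GYR hens was sequenced, 1 library per hen. The authors deposited FPKM per gene and library with 2 decimals; per the paper, reads were trimmed with fastp and aligned with HISAT2 to GRCg7b. Each file holds 1 library. The submitters' processing notes list fastp, Bowtie2, TopHat2, StringTie and the build GRCg6a instead, so the aligner and annotation behind the FPKM are uncertain. FPKM keep no absolute depth, and the clean reads per library that the paper gives were not used here. Counting errors of single genes were therefore not estimated, and an FPKM of 0 need not mean that a transcript was missing. Rows without identifier (3458 in each library but YS_1, with the same values in all 5) were left out. Of the 25635 genes in the RefSeq table (GRCg7b), 0 carry one of the identifiers, so gene names, marker lists, positions and sequences are not used here. At least 19071 genes differed between any pair of libraries.

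The members and lists were chosen with earlier results of these data known. A tie for the second place counted if any tied ovary was of the other breed. Named are the genes with the largest ratio, 2 with the peak in YS and 2 in GYR, the number set for the case without names; other members are given by place or range. The breeds were compared with limma 3.58.1 in R 4.3.3 (lmFit, eBayes with trend, no covariate) on log2(FPKM + 1) for genes whose mean FPKM reached 0.5, two-sided, with Benjamini-Hochberg adjustment. The rule and the fit were tested on simulated data. Descriptions used Python 3.11.15, numpy 2.4.6 and pandas 2.3.3, and figures matplotlib 3.10.9. Deviations of same-numbered ovaries from their breed mean correlated at 0.42, 0.31 and 0.48 across genes, so the number was also fitted as a block; the pairing rests on these values alone. Pseudocount, filter, robust variance, scaling, the settings of the rule and each ovary left out in turn were varied.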

Additional observations from a re-analysis of the deposited data

How the results depend on the processing

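In the limma fit, 255 genes met the study's criteria between the breeds. They became 463 with a pseudocount of 0.1. When single ovaries were left out they were 217 to 669, the most without YS_1 and 421 without GYR_2. The 2 genes past an adjusted p-value of 0.05 became 1 with the pseudocount of 0.1, 1 with no filter on low FPKM, 1 with the replicate block and 1 to 5 with each ovary left out. The higher and lower calls were 126 in YS and 129 in GYR, and 167 and 82 after median-of-ratios scaling, which moved the median over all genes from a log2 fold change of 0.10 to 0.01. Members at the criteria numbered 0, and 0 to 5 with each ovary left out. The most were without YS_1, 5.05% of those tested against 4.5% of all genes. The rule used YS_1, so this share tests nothing about the members. Members with an absolute log2 fold change above 1 numbered 12. They were 32 with a pseudocount of 0.1 and 16 to 34 without single ovaries. Only the 12 have a share of all genes beside them. With each ovary left out, the log2 fold change ran from -1.53 to 0.45 for ENSGALG00000019061, from -0.90 to 2.71 for ENSGALG00000053247, from -3.68 to -0.03 for ENSGALG00000038241, and from 1.69 to 2.58 for ENSGALG00000001885, which was too low to be tested without GYR_3.

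The list of 100 changed more with the minimum FPKM than with the number added to the ratio. With 0.1 or 1 added, 97 and 96 of the 100 were chosen again. With a highest FPKM of at least 2 or 10, 66 and 61 were, and without the condition on the second ovary 49 were. After median-of-ratios scaling 89 were chosen again, and with no gene left out for a high mean all 100 were. With ties counted only within the other breed, an alternative chosen after seeing the data, 98 were. YS_1 held 39 to 52 of 100 under these settings, and 33 to 57 with another ovary left out. Without YS_1, 40 of the former members were chosen again, and YS_3 and GYR_3 then held 35 and 33 peaks. Without GYR_3, GYR_1 held 40. Without GYR_1 or GYR_2, GYR_3 held 33 and 34, and without YS_2, YS_3 held 30. With an ovary left out, genes in which it was second to another ovary of its breed can pass the condition. More peaks in the remaining ovaries of that breed are thus favoured by the rule. The share of all genes past the conditions by peak ovary was not tabulated for these settings. Members with the same number in the highest and second-highest ovary made up 44% to 57% under the settings that kept the condition and all ovaries. They were fewest, 22%, both without GYR_1 and without the condition on the second ovary, and both settings lower this share by construction. Without GYR_1, a member that peaks in YS_1 has no ovary of the same number left. Without the condition, a second ovary of the same breed cannot carry the same number.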

Other observations

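The converse was also tabulated, as a description chosen after the data were seen: genes low in a single ovary. Of 9303 genes with an FPKM of at least 5 in their second-lowest ovary, 140 had a ratio of second-lowest to lowest FPKM, with 0.5 added to both, of at least 2.17. YS_1 was the lowest ovary in 86 of the 140, GYR_1 in 25, YS_3 in 24, GYR_2 in 3, YS_2 in 2 and GYR_3 in 0. The low genes carry no condition on breed, so the 200 genes high in a single ovary without that condition are the closer counterpart. By count, YS_1 led in both sets, with 86 of the 200 and 86 of the 140. GYR_3 held 36 of the 200 and 0 of the 140. The sets still differ in level, since a low gene had to reach an FPKM of 5 in all ovaries but its lowest. In how many of all 9303 genes each ovary was the lowest was not tabulated, so the low counts have no share to be set against. The largest ratio, 85.7, belonged to a gene with an FPKM of 0.09 in YS_1 and at least 50.1 in the other ovaries. None of the 140 was a member, which says little, since the 140 are a small part of the 9303 genes.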
